A study of Rattus norvegicus with 84 samples.

Results

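Genes of the Trim and March families, which encode ubiquitin ligases of the RING type and some close relatives, were read across 3 subregions of the rat hippocampus at 2 ages. Members were chosen by symbol, as every row whose name starts with Trim or March and a number, and no measured value entered the choice. This gave 52 of 15999 genes, 42 Trim and 10 March genes. All 52 were in the CA1 table, and 50 were in each of the CA3 and dentate gyrus (DG) tables, which lacked Trim15 and Trim63. RNA was sequenced from CA1, CA3 and the DG of 28 male F344 rats, an inbred strain without any transgene or treatment in the labels, with 12 young rats (5 months) and 16 middle-aged rats (12 months). Each rat gave 1 library per subregion from 1 hemisphere, so that the 84 libraries form 6 groups of 12 or 16. Behaviour, which the series title refers to, was not analysed here. Each library is a piece of tissue with several cell types, so fewer cells of a type and less RNA per cell cannot be told apart.

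Ubiquitin is a small protein that marks other proteins for degradation or alters what they do. An E1 enzyme activates it, an E2 enzyme carries it, and an E3 ligase chooses the target. TRIM proteins join a RING domain, which binds the loaded E2, to B-box zinc fingers, a coiled coil and a variable end that selects the target: a PRY-SPRY domain in many, NHL repeats, a PHD finger with a bromodomain, or a COS box that binds microtubules. MARCH proteins carry a variant RING and, in most members, membrane-spanning segments, and they act on membrane proteins of the cell surface, endosomes, endoplasmic reticulum or mitochondria. In neurons, members of these families are known from axon guidance, the axon initial segment, transport of receptors and mitochondrial shape, and elsewhere from antiviral defence.

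CA1 libraries held 14.4 to 23.4 M recovered reads, CA3 libraries 15.7 to 21.8 M and DG libraries 14.9 to 21.8 M. Animal numbers in the sample titles form 2 runs: 6 young and 10 middle-aged rats make up the first, 6 of each age the second. The labels do not call them batches, and inside each run young and middle-aged rats have their own stretch of numbers, so number block and age cannot be told apart. Labelled subregions were checked with markers: the 3 granule cell markers together took 459.6 to 791 RPM (recovered reads scaled to the same total in each library) in DG libraries, against 13.7 to 337 in CA1 and 40.2 to 183 in CA3. The 3 CA3 pyramidal markers took 567 to 813 in CA3, but also 336 to 552 in the DG and 106 to 341 in CA1. The 3 CA1 pyramidal markers took 1345 to 2743 in CA1, 135 to 818 in CA3 and 97.2 to 846 in the DG. How far libraries hold neighbouring tissue was not tested. The share of reads from the mitochondrial genome was 8.54 ± 2.43% for young and 11.5 ± 1.81% for middle-aged CA1 (SD, n = 12 and 16). For CA3 it was 7.59 ± 1.56% and 9.04 ± 1.36%, for the DG 7.06 ± 2.64% and 7.96 ± 1.26%. Of 7 microglia markers, CA1 showed a rise of 3, CA3 of 6 and the DG of 1, and none fell; their summed level ran from 300.3 to 391 RPM in young and from 342 to 1539 in middle-aged CA1, and from 235 to 317 and from 234 to 461 in the DG. In CA3 the sums ran from 256 to 321 in young and from 319.6 to 1057 in middle-aged rats. Of 3 oligodendrocyte precursor markers 2 fell in each subregion, Gpr17 by most (-1.01, -0.84 and -0.73 for CA1, CA3 and DG); their sums ran from 131 to 165 RPM in young and from 107 to 162 in middle-aged CA1, from 127 to 178 and 119 to 169 in CA3, and from 86.9 to 132 and 73.7 to 141 in the DG. Of 3 mural cell markers 1 fell in each of CA1 and CA3 and 2 fell in the DG, with Notch3 among them each time (-0.62, -0.47 and -0.78). Pdgfrb had -0.16, -0.11 and -0.17, called in the DG only. Rgs5 went the other way in each subregion, without a call (0.22, 0.14 and 0.29). Their sums overlapped, from 82.8 to 120 RPM in young and 71.8 to 114 in middle-aged CA1. They ran from 53.6 to 89.5 and 52.9 to 81.2 in CA3, and from 69.6 to 105 and 58.2 to 87.3 in the DG. Of 3 CA1 pyramidal markers 2 fell in CA1, Wfs1 (-0.26) and Fibcd1 (-0.34), with sums from 1478 to 2743 RPM in young and from 1345 to 2323 in middle-aged rats. In the DG 1 of these 3 fell, Fibcd1 (-0.57), and in CA3 0 passed. Of 3 CA3 pyramidal markers 2 fell in the DG, Grik4 (-0.16) and Bok (-0.29). Of 3 granule cell markers 1 rose and 1 fell in the DG, Dsp (0.39) and C1ql2 (-0.28). In CA1 and CA3, 0 markers of these last 2 lists passed. No marker was at 0 in all libraries. The part of these measures in the changes below was not tested, except that the mitochondrial share was added to the fit.

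The bases just upstream of 5 members are printed first, because results below concern these genes: March4, Trim41 and Trim8 were lower and Trim34 higher at 12 months in all 3 subregions, and Trim44 changed in opposite directions in CA1 and the DG. March7 was also higher and Trim3 also lower in all 3 subregions, but neither is printed. For Trim3 no upstream sequence was found, and that listed for March7 starts inside its gene model. Each run of letters holds the 250 bases before the annotated start of the gene in RefSeq's GRCr8 assembly, 5′ to 3′ on the gene's strand. The deposited values rest on build rn6, so these positions are not those of the study. The windows are chr9:81647449-81647698 (minus strand) for March4, chr10:33687433-33687682 (minus strand) for Trim41, chr1:255310789-255311038 (plus strand) for Trim8, chr1:168118793-168119042 (plus strand) for Trim34 and chr3:109183822-109184071 (minus strand) for Trim44. Capitals mark matches to short motifs on either strand. The GC box was searched with the letters GGGCGG. The motif CCAAT is named by its letters. For the TATA element the search used TATAAA.
March4: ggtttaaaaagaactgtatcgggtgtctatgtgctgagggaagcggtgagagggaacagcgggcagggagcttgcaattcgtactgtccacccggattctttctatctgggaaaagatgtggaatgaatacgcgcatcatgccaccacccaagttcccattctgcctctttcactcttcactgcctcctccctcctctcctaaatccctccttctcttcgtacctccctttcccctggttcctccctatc
Trim41: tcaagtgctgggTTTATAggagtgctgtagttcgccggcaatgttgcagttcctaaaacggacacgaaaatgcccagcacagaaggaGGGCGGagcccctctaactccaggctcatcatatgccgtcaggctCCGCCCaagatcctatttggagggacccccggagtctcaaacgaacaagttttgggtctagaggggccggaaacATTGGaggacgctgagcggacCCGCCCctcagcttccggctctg
Trim8: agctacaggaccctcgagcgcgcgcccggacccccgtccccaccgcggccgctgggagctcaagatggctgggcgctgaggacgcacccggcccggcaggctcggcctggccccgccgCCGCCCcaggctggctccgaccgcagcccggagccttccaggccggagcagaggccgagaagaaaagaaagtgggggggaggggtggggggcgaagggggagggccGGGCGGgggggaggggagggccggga
Trim34: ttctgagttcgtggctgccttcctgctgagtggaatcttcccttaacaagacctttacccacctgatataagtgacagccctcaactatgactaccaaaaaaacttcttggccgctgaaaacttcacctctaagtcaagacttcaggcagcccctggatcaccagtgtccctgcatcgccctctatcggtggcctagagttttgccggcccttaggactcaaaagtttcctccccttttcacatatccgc
Trim44: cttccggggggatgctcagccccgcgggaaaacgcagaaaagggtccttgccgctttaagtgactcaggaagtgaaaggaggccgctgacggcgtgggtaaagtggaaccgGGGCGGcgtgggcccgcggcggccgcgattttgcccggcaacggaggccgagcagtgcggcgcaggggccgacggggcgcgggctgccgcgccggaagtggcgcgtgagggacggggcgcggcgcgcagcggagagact
The windows differed in composition, with 52% G and C for March4, 57.2% for Trim41, 77.6% for Trim8, 50% for Trim34 and 72% for Trim44. A GC box stood in 22 of the 43 members that have a window (51.2%, March7 included), against 32.4% of 27457 windows of all genes, and CCAAT in 15 members (34.9%, against 34.3%). Those 27457 windows include genes that this series does not list, so the backgrounds of the motifs are not matched for expression. Among genes tested in CA1, the median G and C of the window was 59.2% for members and 60.4% for all. TATAAA was found in 3 members (6.98%, against 13.1%). An interferon-stimulated response element, searched on both strands, was found in Trim21 and Trim26 only, against 3.29% of all windows. A cyclic AMP response element (TGACGTCA) was found in Trim26 (2.33% of members, 1.70% of all windows) and an E-box (CACGTG) in March8 and Trim25 (4.65%, against 5.79%). March4 and Trim34 held none of the 6 motifs within these bases. A match is a string of letters and not a tested site.

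The first question was how many members differed between 5 and 12 months. In CA1, 4 of 49 tested members rose and 7 fell, in CA3 3 of 49 rose and 5 fell, and in the DG 12 of 47 rose and 12 fell (limma on log2 of the normalized count plus 1, Benjamini-Hochberg over all genes, adjusted p at most 0.05). Among all tested genes, 12.4% rose and 12.8% fell in CA1, 10.9% rose and 10.8% fell in CA3, and 18.5% rose and 18.5% fell in the DG. The members' shares were 8.16% and 14.3% for CA1, 6.12% and 10.2% for CA3, and 25.5% each way for the DG. They lay near the background in CA1 and CA3 and somewhat above it in the DG, a gap of few genes that was not tested. Their median change (log2) was -0.017, -0.0016 and -0.041 for CA1, CA3 and DG, beside 0.0038, 0.0022 and 0.0100 over all genes. On the average of a rat's 3 subregions, 8 of 47 members rose and 14 fell, where 25.4% and 24.6% of all genes did. Of the 47 members tested in all 3 subregions, 25 passed in at least 1 (53.1% of all genes did), 6 of them in exactly 2 (14.9%) and 13 in exactly 1 (29.5%). The DG alone accounted for 12 (6 up and 6 down; 17.2% of all genes), CA1 alone for Trim47 (7.24%), and CA3 alone for 0 (5.06%). Trim44 passed in opposite directions in 2 subregions (1 of 47; 0.21% of all genes).

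**Figure D1:**
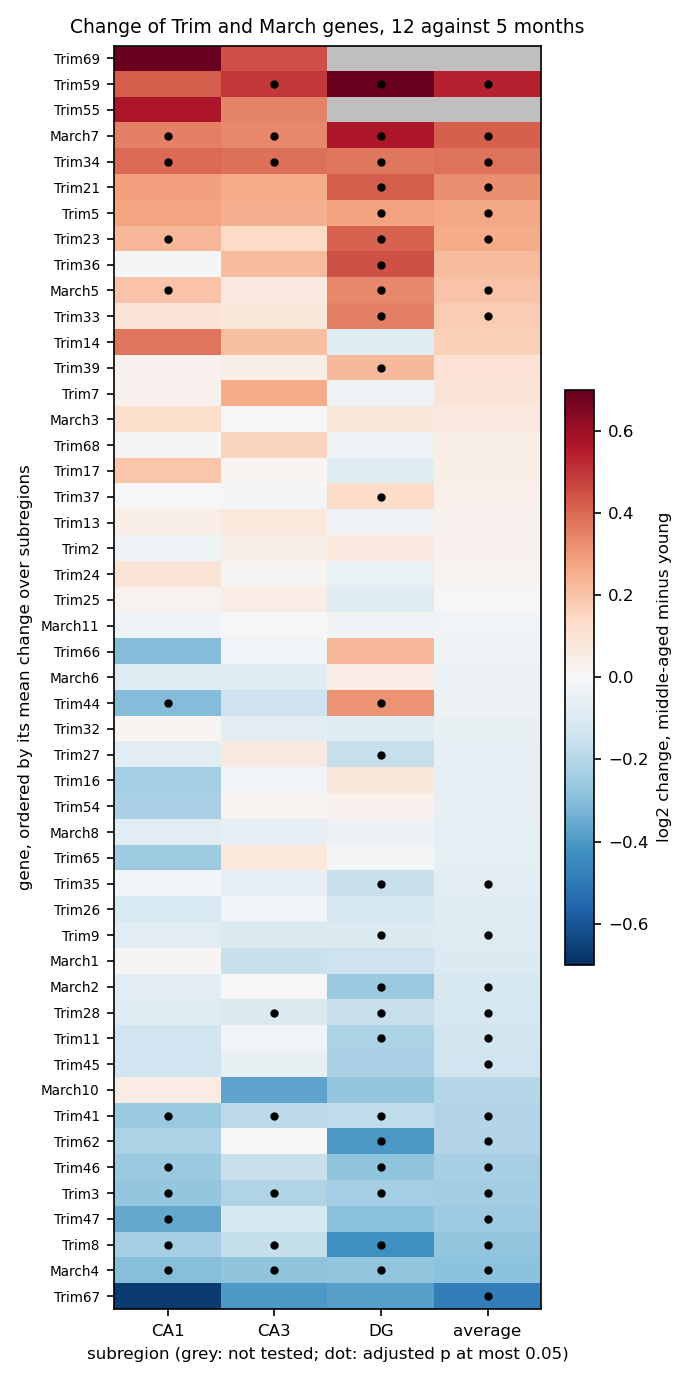
Change of each tested Trim and March gene (rows, ordered by the mean of their changes) between 5 and 12 months in CA1, CA3, the DG and the average of a rat's 3 values (columns), as a log2 difference from blue (lower at 12 months) to red (higher); black dots mark an adjusted p of at most 0.05 and grey cells were not tested. The DG column has the most dots, 24 against 11 in CA1 and 8 in CA3, and Trim44 is blue in CA1 and red in the DG.

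Members that moved together in all 3 subregions were 2 that rose (2 of 47; 4.24% of all genes did) and 4 that fell (4 of 47; 4.45% of all genes did). March7, or axotrophin, is a ligase without a membrane segment. Its normalized read count in the DG ran from 347 to 480 in young rats (median 403) and from 380 to 808 in middle-aged rats (median 607). In 14 of 16 middle-aged rats it lay above the highest young rat, so the groups overlapped through 2 rats only. The change was 0.56 ± 0.09 on the log2 scale (SE, 12 and 16 rats; limma, adjusted p = 0.000121), or 47.8%. In CA3 March7 ran from 422 to 603 (median 515) and from 557 to 753 (median 634), again with 14 of 16 middle-aged rats above every young rat (0.34 ± 0.05, limma adjusted p = 8.3e-05). In CA1 it ran from 310 to 489 (median 418) and from 383 to 706 (median 491), with more overlap and 8 of 16 rats above the young range (0.35 ± 0.09, limma adjusted p = 0.00732). March7 passed after leaving out any of the 28 rats in each subregion. It also passed in each run alone in CA3 (0.29 and 0.42) and on the average (0.38 and 0.49).

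Trim34 belongs to the PRY-SPRY members known from antiviral defence and is a close relative of Trim5, so reads of the pair may have been shared between them. It had few reads. Its count ran from 51.5 to 94.6 in young CA3 (median 81.1) and from 76.2 to 144 in middle-aged CA3 (median 104), with 13 of 16 above the young range (0.38 ± 0.09, limma adjusted p = 0.00285). In CA1 the ranges were 64.7 to 131 (median 78.5) and 80 to 213 (median 114), and all 16 middle-aged rats lay above the young median (0.40 ± 0.13, limma adjusted p = 0.0232). In the DG they were 22.7 to 100.01 (median 67.6) and 59.2 to 101.5 (median 86.7), with only 2 rats above the young range. The DG change of 0.37 ± 0.14 was near the threshold (limma adjusted p = 0.0417; edgeR 0.0609). It passed in 14 of 28 fits that each left out 1 rat, with a highest adjusted p of 0.071; the call was lost without young replicates 2, 3, 6, 8 or 11 or middle-aged replicates 2, 3, 4, 9, 10, 11, 12, 13 or 16. Trim5 itself rose in the DG from 79.5 ± 17.2 to 95.4 ± 11.4 (SD; 0.28 ± 0.10, limma adjusted p = 0.0241).

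Of the members that fell throughout, Trim8, a nuclear RING protein known to bind the signalling inhibitor SOCS1, changed most in the DG. There it ran from 2515 to 3209 in young rats (median 2917) and from 1790 to 2541 in middle-aged rats (median 2147), and 15 of 16 middle-aged rats lay below every young rat. This was a fall of 25.7% (-0.43 ± 0.06, limma adjusted p = 2.55e-05). In CA1 Trim8 ran from 2499 to 3503 (median 2704) and from 2012 to 3364 (median 2396), and in CA3 from 2067 to 2712 (median 2239) and from 1802 to 2296 (median 2098). Here the groups overlapped more, and 11 and 6 of 16 rats lay below the young range. The changes were -0.23 ± 0.07 in CA1 (limma adjusted p = 0.0157) and -0.17 ± 0.04 in CA3 (limma adjusted p = 0.00611).

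Trim3, an NHL protein of neurons that takes part in vesicle transport, fell by a like amount in each subregion. Its young and middle-aged counts were 1885 ± 159 and 1569 ± 217 for CA1, 2010 ± 173 and 1736 ± 156 for CA3, and 1787 ± 148 and 1522 ± 195 for the DG (SD, n = 12 and 16). The middle-aged rat lay below all young rats for 12 of 16 in CA1, for 11 in CA3 and for 7 in the DG. The log2 changes were -0.27 ± 0.06, -0.21 ± 0.05 and -0.24 ± 0.06 (limma adjusted p = 0.00416, 0.00302 and 0.00377). Trim41, a PRY-SPRY ligase known to target protein kinase C, went from 1246 ± 104 to 1050 ± 171 in CA1, from 1139 ± 62.1 to 1004 ± 84.3 in CA3 and from 1354 ± 95.5 to 1205 ± 160 in the DG. These changes were -0.26, -0.18 and -0.18 (limma adjusted p = 0.011, 0.00333 and 0.0246). March4, a transmembrane ligase of the Golgi and cell surface, went from 291 ± 54.7 to 237 ± 42.5 in CA1, from 222 ± 36.1 to 181 ± 21.9 in CA3 and from 321 ± 37 to 265 ± 38.2 in the DG. Its changes were nearly equal, at -0.30 ± 0.10, -0.28 ± 0.08 and -0.28 ± 0.07 (limma adjusted p = 0.0248, 0.0108 and 0.00502). In CA1 the March4 call was lost without young replicate 1 or young replicate 2 (highest adjusted p 0.055).

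**Figure D2:**
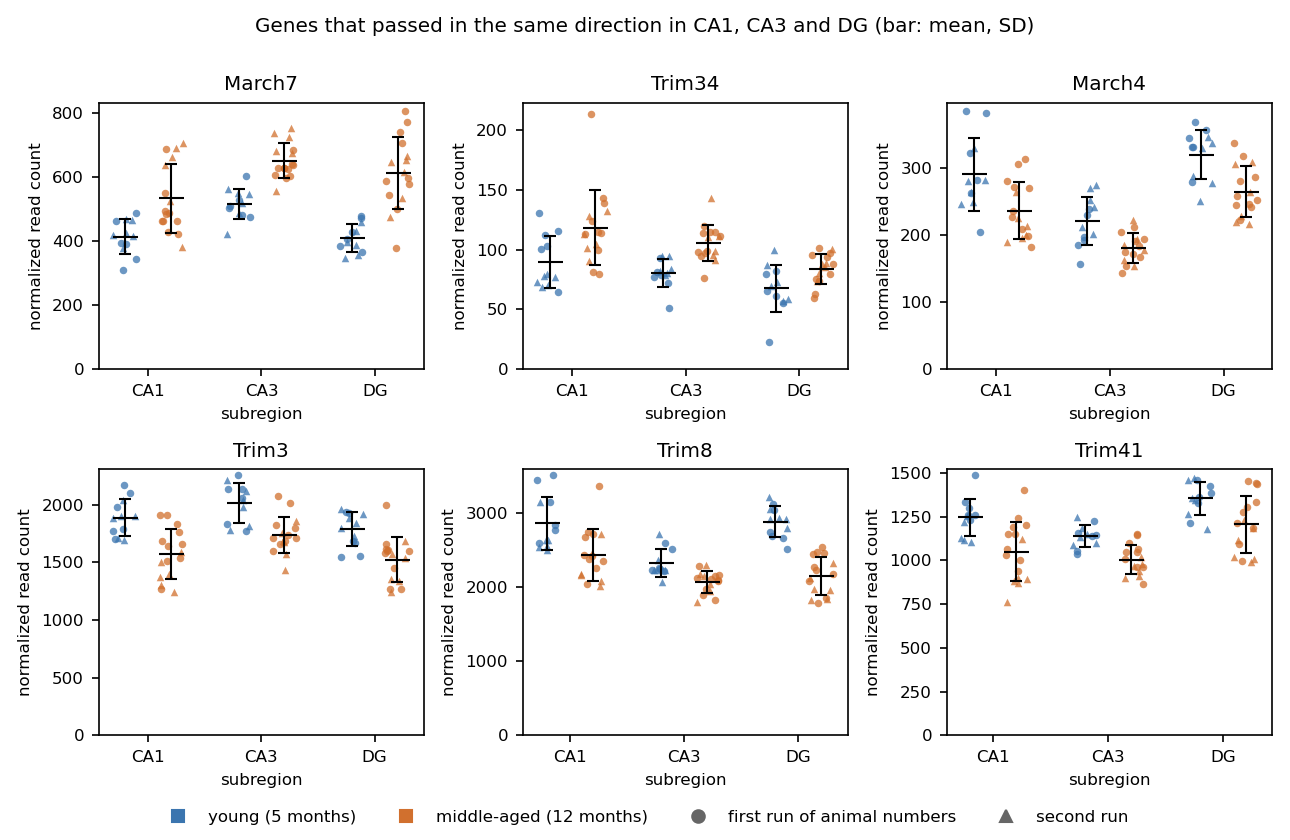
Normalized read count (vertical axes, from 0) of the 6 genes that passed in the same direction in all 3 subregions, by subregion and age, with 1 point per rat (circles first run of animal numbers, triangles second run) and the mean with SD in black. March7 and Trim34 sit higher in the 16 middle-aged rats than in the 12 young rats; March4, Trim3, Trim8 and Trim41 sit lower, with groups that overlap.

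The other March members were read in turn, since these ligases differ by the membrane they act on. March5, of the mitochondrial outer membrane, rose in the DG from a range of 565 to 779 (median 672) to one of 657 to 1077 (median 835), with 13 of 16 rats above the young range (0.33 ± 0.07, limma adjusted p = 0.00102). In CA1 it rose less, from 706 ± 91.5 to 809 ± 79.2 (0.20 ± 0.06, limma adjusted p = 0.0231; 0.0518 without young replicate 1), and in CA3 it was 898 ± 74.7 and 943 ± 77.3 (limma adjusted p = 0.289). Its annotated gene overlaps Cpeb3 in GRCr8, and the strand used in counting is not given in the sources used here. March2, a ligase of endosomes, fell in the DG from 1584 ± 255 to 1320 ± 169 (-0.26 ± 0.07, limma adjusted p = 0.00659), and was 1794 ± 164 and 1698 ± 149 in CA1 and 1754 ± 102 and 1758 ± 209 in CA3, without a call.

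No call was made for March1, March3, March6, March8, March10 and March11 in any subregion. March6, the ligase of the endoplasmic reticulum, had young and middle-aged means of 1692 and 1602 for CA1, 2073 and 1956 for CA3, and 1983 and 2052 for the DG. March8 and March1, which are known to remove immune receptors from the cell surface, had log2 differences of -0.08 and 0.01 for CA1, -0.06 and -0.15 for CA3, and -0.04 and -0.15 for the DG. March3 had 0.12, 0.0040 and 0.08, and March11 -0.03, -0.0038 and -0.03 in CA1, CA3 and the DG. March10, with means of 13.2 to 34.6 counts, had 0.05, -0.37 and -0.28; its adjusted p in CA3 was 0.112 (limma), and 0.0145 without young replicate 12. The sign of such small differences was not stable: under other scalings or tools March1 turned to -0.04 in CA1 (quantile), March2 to 0.018 and March3 to -0.04 in CA3 (quantile), and March11 to 0.04 in the DG (DESeq2).

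In CA1, the members that changed were March7, Trim34, Trim23 and March5 upward and Trim47, Trim3, Trim41, Trim8, Trim46, March4 and Trim44 downward. Trim47, a PRY-SPRY member and the gene called in CA1 alone, ran from 93 to 159 in young rats (median 134) and from 69.4 to 122 in middle-aged rats (median 99.99). All 16 middle-aged rats lay below the young median and 6 below the young range (-0.36 ± 0.10, limma adjusted p = 0.00904). Trim47 also passed on the average over subregions (-0.25 ± 0.06, limma adjusted p = 0.000843). In the DG its limma adjusted p was 0.0934, and 0.0462 without middle-aged replicate 4. A fall particular to CA1 is thus not shown. Trim46, which bundles microtubules at the axon initial segment, went from 1960 ± 357 to 1632 ± 249 in CA1 (-0.26, limma adjusted p = 0.0202) and from 2524 ± 237 to 2101 ± 378 in the DG (-0.28, limma adjusted p = 0.006). Its annotated gene overlaps Krtcap2 in GRCr8. In CA3 Trim46 had 1880 ± 226 and 1691 ± 225, without a call (limma adjusted p = 0.0886; 0.0413 without middle-aged replicate 9). Trim23, a member with a GTPase domain of the ARF type, rose from 659 ± 111 to 772 ± 102 in CA1 (0.23 ± 0.08, limma adjusted p = 0.0298). That call was lost without young replicates 1, 8 or 11 or middle-aged replicate 12 (highest adjusted p 0.0649).

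The mitochondrial share, which was higher in middle-aged CA1, was added as a term to the fit. With it, 0 of the 11 members passed and 1 other, Trim65, did (-0.51, limma adjusted p = 0.0296; named after its value was seen), while the share of all genes called in CA1 was 4.95%. The changes of the 11 members kept their direction, and some kept their size, as 0.34 for March7 and -0.25 for Trim8 (limma adjusted p = 0.0731 for each); that of Trim34 became 0.15 (limma adjusted p = 0.517). In CA3 5 of 8 members passed with the term, and in the DG 21 of 24. For CA3 and the DG the share of all genes with the term is not given here, so these counts lack a background. Without young replicate 1, the CA1 count was 7 (2 up and 5 down), with March4, March5, Trim23 and Trim44 lost.

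In CA3, beside the 6 shared members, Trim59 rose and Trim28 fell. Trim59, one of the few Trim proteins with a membrane segment, ran from 89.2 to 229.6 in young rats (median 149) and from 114 to 316 in middle-aged rats (median 204), and 14 of 16 lay above the young median (0.49 ± 0.14, limma adjusted p = 0.0113). It rose further in the DG, from a range of 26.6 to 56.6 (median 36.7) to one of 36.1 to 121 (median 55.9), a change of 0.69 ± 0.17 (61.8%, limma adjusted p = 0.00265) and the largest rise of a tested member in any subregion. In CA1 it had 90.5 ± 32.6 and 121 ± 39 (0.43 ± 0.19, limma adjusted p = 0.0896), and passed without young replicates 5 or 6 or middle-aged replicates 5 or 6 (lowest 0.0441). Trim28, the co-repressor KAP1 that works with zinc-finger factors to silence repeated elements, went from 2652 ± 111 to 2478 ± 142 in CA3 (-0.10 ± 0.03, limma adjusted p = 0.0304; highest 0.0601 without young replicate 10 or 2) and from 3269 ± 186 to 2928 ± 203 in the DG (-0.16 ± 0.04, limma adjusted p = 0.00379). In the DG 12 of 16 middle-aged rats lay below the young range. Trim28 overlaps Chmp2a in GRCr8.

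In the DG, members that rose included Trim23, Trim59, March7, March5, Trim33, Trim44, Trim36, Trim21, Trim5, Trim39, Trim37 and Trim34. Trim23 ran from 536 to 800.4 in young rats (median 631) and from 670.4 to 1051 in middle-aged rats (median 864), all 16 above the young median and 10 above the young range (0.41 ± 0.07, limma adjusted p = 0.000218). Trim33, which shares its PHD and bromodomain class with Trim28 and is known from Smad signalling, rose from 273 ± 42.6 to 351 ± 59.7 (0.35 ± 0.09, limma adjusted p = 0.00328). The class of 4 thus held 1 member that rose, 1 that fell and 2 without a call. Trim21, the cytosolic receptor for antibodies, went from 41.1 ± 15.5 to 54 ± 12.9 (limma adjusted p = 0.0335), and was lost in 7 of 28 fits without 1 rat (young replicates 3, 7, 8 or 12, middle-aged replicates 7, 11 or 14; highest adjusted p 0.0724). Trim39 and Trim37 overlap the annotated genes Rpp21 and Ppm1e in GRCr8, and reads of such pairs cannot be assigned without the strand.

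Those that fell in the DG were Trim8, Trim35, Trim3, Trim28, March4, Trim11, Trim46, March2, Trim27, Trim62, Trim41 and Trim9. Trim35, a PRY-SPRY member, went from a range of 4984 to 5596 (median 5205) to one of 4120 to 5273 (median 4760), with 13 of 16 rats below the young range, a fall of 10.2% (-0.16 ± 0.04, limma adjusted p = 0.00219). With quantile normalization it was -0.05 (limma adjusted p = 0.264). Trim11 went from 411 ± 32.9 to 354 ± 40.2 and Trim62 from 79.1 ± 16.7 to 59.8 ± 13.3 (-0.22 and -0.40). Trim9, a brain ligase that binds the netrin receptor, went from 4553 ± 229.9 to 4251 ± 205, a fall of 6.63% (limma adjusted p = 0.0308; highest 0.0618 without young replicates 7 or 9 or middle-aged replicate 11).

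By domain, the DG calls were spread over the classes. Of 18 tested PRY-SPRY members (of 21), 4 rose and 5 fell, with a median change of -0.08, beside the 18.5% of all DG genes that rose and 18.5% that fell and a median of 0.0100 over all. Of 5 tested members of the microtubule class (of 7), Trim36 rose and Trim9 and Trim46 fell, with a median of -0.10. Of the 3 NHL members, Trim3 fell, and Trim2 and Trim32 had no call in any subregion. Of the 6 March members of vesicles and plasma membrane, 2 fell and 0 rose, at a median of -0.09. Among tested genes of the DG, the RefSeq gene length (GRCr8) had a median of 46.2 kb for those that rose and 15.7 kb for those that fell. For the 12 members that rose it was 27.7 kb and for the 12 that fell 16.1 kb, which is the same order with a smaller gap; the difference was not tested.

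Members without a call had wide ranges of difference. In CA1 the 38 such members ran from -0.67 (Trim67) to 0.69 (Trim69), in CA3 the 41 from -0.40 (Trim67) to 0.45 (Trim69), and in the DG the 23 from -0.38 (Trim67) to 0.23 (Trim66). Trim67, a close relative of Trim9, had young medians of 16.8, 23.1 and 24.3 counts in CA1, CA3 and the DG and middle-aged medians of 9.49, 16.9 and 18.8. On the average over subregions it passed (-0.48 ± 0.16, limma adjusted p = 0.0114). By subregion it passed in CA1 without young replicate 6 and in CA3 without young replicate 2, and Trim69 passed in CA1 in 8 of 28 fits without 1 rat (young replicates 3, 5 or 6, middle-aged replicates 2, 3, 5, 6 or 8). Some members were not tested because fewer than 12 libraries reached 10 counts. Trim72 failed in each subregion, with means of 3.84 to 7.4 counts. Trim15 (9.26 and 8.97 in young and middle-aged rats) and Trim63 (4.9 and 5.92) failed in CA1, the 1 table that lists them. Trim55 and Trim69 failed in the DG, where Trim55 had 6.14 ± 2.62 and 10.9 ± 3.42 counts and Trim69 4.03 ± 3.05 and 7.68 ± 4.53.

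On the average over subregions, a rat counted once. March7 had the smallest p among members that rose (0.42 ± 0.04, limma adjusted p = 3.07e-07), followed by Trim23 (0.26 ± 0.04), Trim34 (0.38 ± 0.07), March5 (0.20 ± 0.04) and Trim59 (0.54 ± 0.11). Trim8 had the smallest among those that fell (-0.28 ± 0.04, limma adjusted p = 3.89e-06), then Trim3 (-0.24 ± 0.04), March4 (-0.29 ± 0.06), Trim46 (-0.23 ± 0.05) and Trim41 (-0.21 ± 0.05). The 22 called members included Trim45 and Trim67, which no single subregion called. Members called in the DG but not on the average were Trim27, Trim36, Trim37, Trim39 and Trim44.

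The 2 runs of animal numbers differed in how many calls they gave. In the first run alone, 1 member passed in CA1, 3 in CA3, 0 in the DG and 9 on the average, where 3.19%, 4.83%, 0.172% and 18.4% of all genes did. Of the members called over both runs, 0 of 11 in CA1 and 0 of 24 in the DG were among them. In CA3 3 of 8 were, and on the average 7 of 22. Of all genes called, 349 of 3700 in CA1, 600 of 3231 in CA3, 25 of 5382 in the DG and 2351 of 7149 on the average were. In the DG 12 of 47 members had an unadjusted p under 0.05 in the first run (limma), where 22.1% of all genes did. In the second run 15 passed in CA1, 8 in CA3, 21 in the DG and 24 on the average, where 33.8%, 16.5%, 46.9% and 58.1% of all genes did. Direction was the same in both runs for 11 of 11 members called in CA1, 8 of 8 in CA3, 24 of 24 in the DG and 22 of 22 on the average. Over all genes called, 99.4% kept direction in CA1, 99.6% in CA3, 97.9% in the DG and 97.5% on the average. The calls rest on both runs together, which by itself favours equal direction. On the average, 7 of the 22 called members passed in each run: March4, March7, Trim3, Trim8, Trim23, Trim34 and Trim41. Of all 7149 genes called on the average, 2049 did so, which is a like share. March5 shows the gap between runs: in the DG it changed by 0.16 in the first run (limma adjusted p = 0.343) and by 0.52 in the second (limma adjusted p = 1.35e-05).

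**Figure D3:**
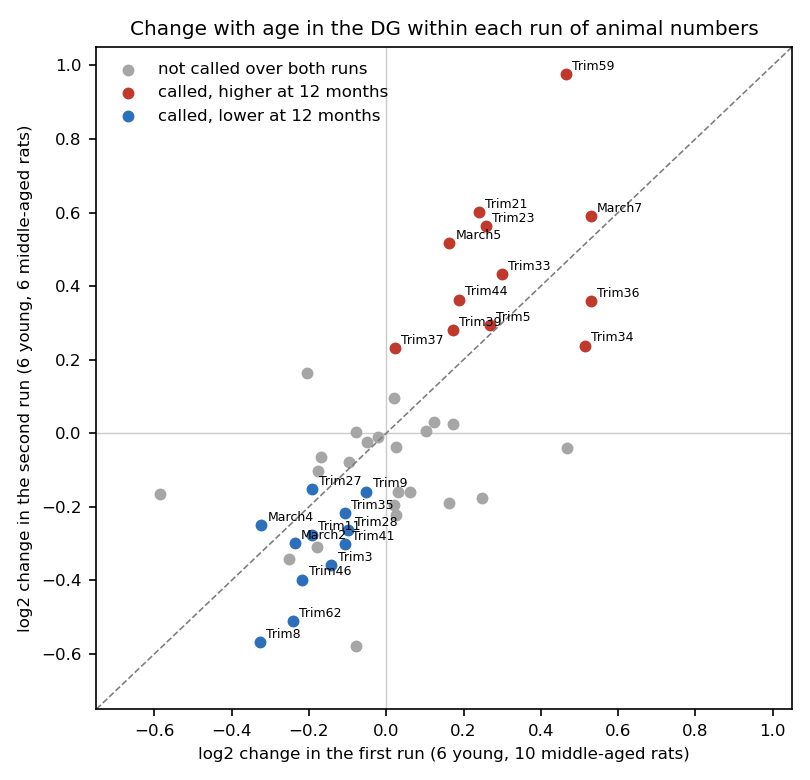
Change with age in the DG in the first run (horizontal, log2, 6 young and 10 middle-aged rats) against the second run (vertical, 6 and 6 rats), 1 point per tested member; red and blue mark members called higher or lower over both runs, and the dashed line marks equal change. All 24 called members lie in the quadrants of equal sign, as 97.9% of all genes called in the DG would. Trim59 lies at 0.98 in the second run and 0.46 in the first.

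Whether the change with age differed between subregions was tested within rats. No member differed between CA1 and CA3 (0 of 49, and 0% of all genes, limma). At an unadjusted p under 0.05 (limma) there were 0 members, where 9.95% of all genes passed. Between the DG and CA1, Trim44 passed (1 of 47; 0.607% of all genes), and between the DG and CA3, Trim44, Trim8, Trim23 and Trim27 did (4 of 47; 2.73% of all genes). These tests share the DG libraries, so they are not independent.

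Trim44 is a member without a RING domain, with a zinc finger of the kind found in ubiquitin proteases. In CA1 its count ran from 610 to 1038 in young rats (median 808) and from 489 to 982 in middle-aged rats (median 629), and 7 of 16 lay below the young range (-0.30 ± 0.11, limma adjusted p = 0.04). In CA3 it ran from 508 to 990 (median 785) and from 439 to 860 (median 690), without a call (-0.14, limma adjusted p = 0.235). In the DG it ran the other way, from 497 to 920.1 in young rats (median 643) and from 646 to 1098 in middle-aged rats (median 859), with all 16 above the young median (0.32 ± 0.09, limma adjusted p = 0.00765). In RPM the DG was above CA1 in 0 of 12 young rats and in 15 of 16 middle-aged rats, and above CA3 in 4 of 12 and 16 of 16. On the normalized counts, which were scaled separately in each subregion, these orders were 1 of 12 and 13 of 16, and 4 of 12 and 14 of 16. Within rats, log2 of the DG to CA1 ratio averaged -0.28 ± 0.21 at 5 months and 0.33 ± 0.31 at 12 months (SD), a difference of 0.62 ± 0.10 (SE, limma adjusted p = 0.00562). For the DG and CA3 it was -0.18 ± 0.28 and 0.28 ± 0.26, a difference of 0.46 ± 0.10 (limma adjusted p = 0.019).

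The opposite changes of Trim44 held their direction within each run. In the second run the young and middle-aged groups did not overlap in CA1 (610 to 850 against 489 to 588) or in the DG (497 to 618 against 646 to 854). In the first run they overlapped in each (766 to 1038 against 543 to 982 in CA1, 668 to 920.1 against 780 to 1098 in the DG). The difference between the DG and CA1 was 0.52 in the first run (limma adjusted p = 0.212) and 0.76 in the second (limma adjusted p = 0.0293). With no pairing of libraries by rat it had the same size and an adjusted p of 0.0612 (limma), and for the DG and CA3 0.0512. The CA1 call by itself passed in 14 of 28 fits without 1 rat (highest adjusted p 0.0786), and was lost without young replicates 1 to 5 or 12 or middle-aged replicates 9 to 16. The annotated Trim44 gene overlaps an lncRNA and an snRNA model in GRCr8.

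**Figure D4:**
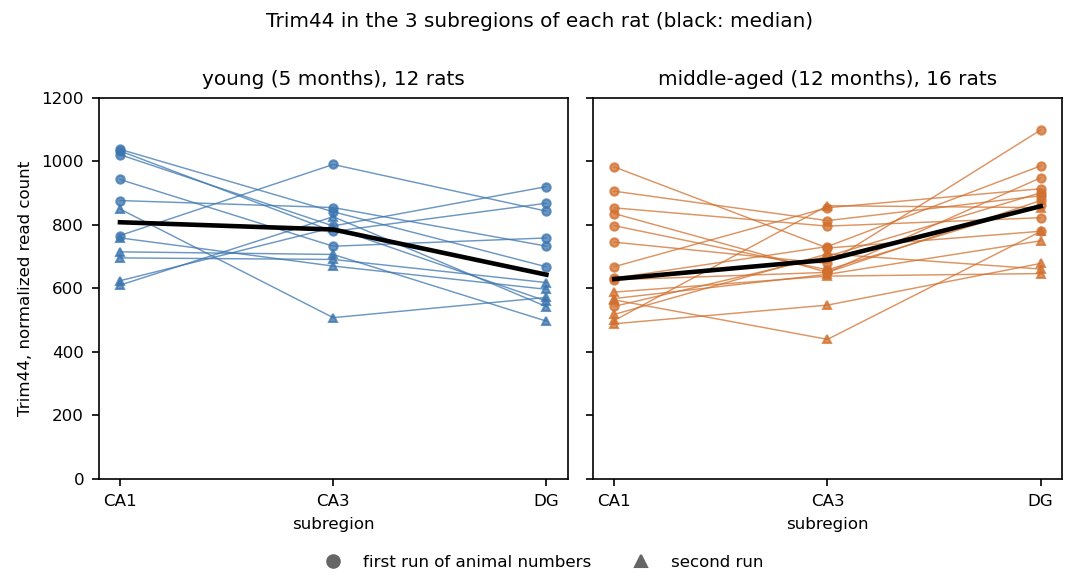
Normalized read count of Trim44 (vertical axis), scaled separately in CA1, CA3 and the DG, for each rat, 1 line per rat, in 12 young (left) and 16 middle-aged rats (right), with the median in black; circles are the first run of animal numbers and triangles the second. The median falls from 808 in CA1 to 643 in the DG in young rats and climbs from 629 to 859 in middle-aged rats.

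The other differences were of size, except for Trim27. Trim8 fell more in the DG than in CA3 (-0.43 against -0.17; difference -0.26 ± 0.07, limma adjusted p = 0.0345). Trim23 changed by 0.41 in the DG and by 0.14 in CA3, where it did not pass with all rats (difference 0.27 ± 0.07, limma adjusted p = 0.0421). In CA3 Trim23 passed without young replicate 6 or middle-aged replicate 15 (lowest adjusted p 0.0377). Without pairing by rat the difference of Trim23 had an adjusted p of 0.0936 (limma), and those of Trim8 and Trim27 had 0.0476 and 0.0475. Trim27, a nuclear PRY-SPRY protein, fell in the DG from 591 ± 43.8 to 529 ± 31.9 (-0.16) and had 543 ± 49.9 and 566 ± 32.9 in CA3 (0.06, not called). The difference was -0.22 ± 0.06 (limma adjusted p = 0.0457), with adjusted p of 0.27 and 0.243 when the first and second runs were fitted alone.

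Levels across subregions were set side by side in RPM and not tested, as each table was normalized separately. A gene counted as higher in a subregion where it was so in 28 of 28 rats with a median ratio of at least 1.5. Above CA3, CA1 held Trim54 (1 of 49; 2.34% of all genes), and above CA1, CA3 held Trim36 (1 of 49; 2.81%). Above the DG, CA1 held Trim2 and Trim36 (2 of 47; 3.94%) and CA3 held Trim36, Trim59, Trim16, March8 and Trim2 (5 of 47; 5.06%). The DG held 0 members above CA1 (3.93% of all genes) and 0 above CA3 (5.06% of all genes).

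Trim36 and Trim54, both of the microtubule class, had the clearest patterns. Trim36 had a median of 12.2 RPM in CA3 (6.83 to 20.5), 7.21 in CA1 (3.84 to 11.6) and 3.61 in the DG (1.67 to 6.80), so that the ranges of neighbours overlapped although the order of CA3 over CA1 over the DG held in every rat. The median ratio within rats was 3.81 for CA3 over the DG. Trim54, known from muscle as MuRF3, had medians of 3.64 for CA1, 0.958 for CA3 and 1.22 for the DG, with a CA1 to CA3 ratio of 3.64 that ran from 1.86 to 7.02. CA1 was also above the DG in 27 of 28 rats, while CA3 and the DG were ordered differently in 7 and 21 rats. Trim59 was 3.18 times and Trim16, a member without a RING, 2.07 times as high in CA3 as in the DG by the median ratio.

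Trim2, an NHL ligase known to act on neurofilament light chain, had a median of 651 RPM in CA1 (516 to 814), 674 in CA3 (559 to 776) and 439 in the DG (326 to 537). CA1 and CA3 were not ordered, with CA1 higher in 13 of 28 rats. Other members leaned towards the DG but missed the ratio of 1.5 or the count of 28 rats. Trim9 was higher in the DG than in CA1 and CA3 in 28 of 28 rats (median ratios 1.32 and 1.39), and Trim46 was higher in the DG than in CA3 in 28 of 28 (1.37) and than in CA1 in 24 of 28 (1.32). March4 was higher in the DG than in CA3 in 27 of 28 rats (1.54). The highest median lay in CA1 for 14, in CA3 for 21 and in the DG for 15 of the 50 members listed in all 3 tables.

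**Figure D5:**
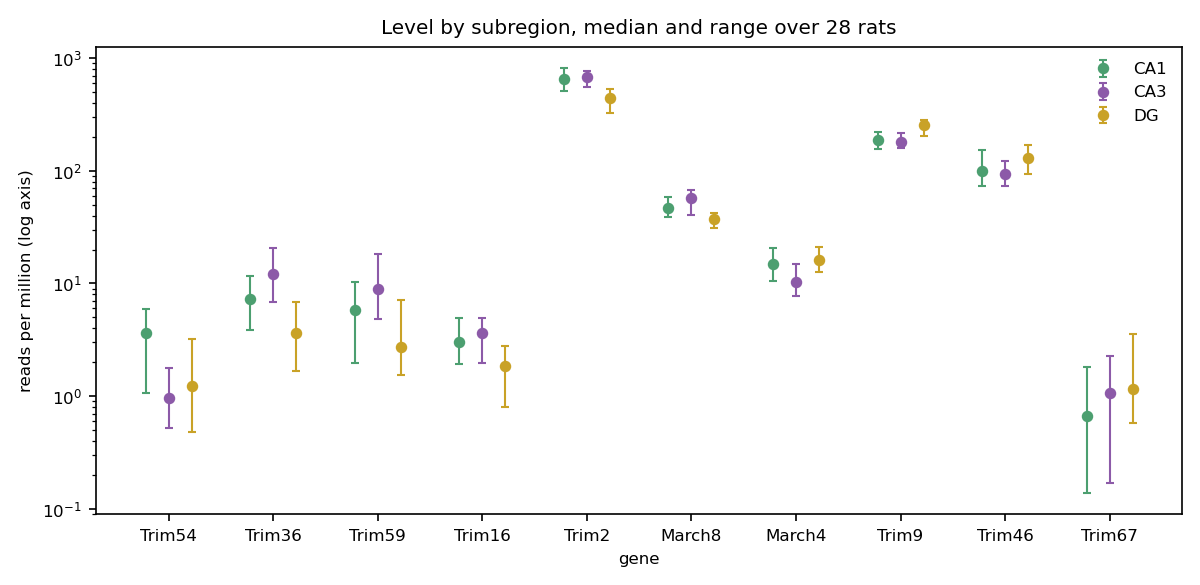
Level of 10 members in RPM (log axis) in CA1 (green), CA3 (purple) and the DG (yellow), shown as the median (point) and the lowest to highest (bar) of 28 rats of both ages. Trim36, Trim59, Trim16 and Trim2 are lowest in the DG, Trim54 is highest in CA1, and Trim9 and Trim46 are highest in the DG; levels of different genes are not scaled by length.

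The genes that feed these ligases were read from the same fits. Of 25 tested genes for ubiquitin, E1, E2 and TRIM proteins with other symbols, 7 rose and 1 fell in CA1 (12.4% and 12.8% of all genes did), 7 rose and 1 fell in CA3 (10.9% and 10.8%), and 8 rose and 4 fell in the DG (18.5% each way). The ubiquitin genes split: Ubb, a polyubiquitin gene, fell in CA1 and the DG (-0.27 and -0.24), while Rps27a, which encodes ubiquitin fused to a ribosomal protein, rose in CA1, CA3 and the DG (0.39, 0.29 and 0.25). Of the E1 genes, Uba6 rose in CA3 and the DG (0.30 and 0.35) and Uba1 fell in the DG (-0.16). Of 16 tested E2 genes, 6 rose and 0 fell in CA1, 5 rose and 1 fell in CA3, and 5 rose and 2 fell in the DG, to be read against the same shares of all genes. Ube2e3 and Ube2v2 rose in all 3 subregions (0.34 and 0.29 in CA1, 0.16 and 0.24 in CA3, 0.22 and 0.39 in the DG), and Ube2v1, a close relative of Ube2v2, fell in CA3 and the DG (-0.16 and -0.25). Mid1, Mid2 and Pml, TRIM proteins by structure, gave 1 call, a rise of Mid2 in the DG (0.24, limma adjusted p = 0.00702).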

How the data were processed

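Polyadenylated RNA from CA1, CA3 and the DG was sequenced with an Ion Total RNA-seq kit, per the labels' protocols. Build rn6, STAR 2.5.3a, Partek and DESeq2 3.5 appear, without order or settings, in the submitters' processing notes. Annotation, strand and filters: not given in the sources used here. For each subregion the authors deposited 1 table of a signal that they call normalized counts. Its values are whole multiples of 1 step per library (100% within 0.1 of a whole read, up to 1000 reads), so whole reads were recovered; they served for RPM (reads scaled to the same total in each library), edgeR and DESeq2. The columns without a sample numbered 0. For CA3, 1 column is headed by the animal number without the subregion, and was given to that animal's CA3 library.

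A gene needed a value of 10 or more in 12 or more of the 28 libraries. Log2(value + 1), with a pseudocount of 1, was tested by limma 3.58.1 (empirical Bayes with trend, 2-sided) in R 4.3.3, with Benjamini-Hochberg adjustment over all genes of the table and a threshold of 0.05. Every adjusted p is from such a fit unless edgeR is named beside it, and fold changes of low genes are understated on this scale. The average is taken over the 3 log2 values from 1 rat. Differences of the age change used the difference within a rat, paired by the animal number in the titles. As a check, deviations from the means of age and run correlated over 14291 genes with a median of 0.0276 (CA1 and CA3), 0.00781 (CA1 and DG) and 0.0727 (CA3 and DG) between libraries of a rat, and 0.00551, 0.00718 and -0.0122 between rats of the same age and run. The best match carried the rat's own number in 5, 5 and 8 of 28 rats. The check was therefore weak, and for CA1 and the DG the 2 medians were about equal, so the pairing rests on the titles. Rats are named by age and a replicate number in order of deposit.

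The rule for named members took those called in all 3 subregions, the 5 smallest p per direction in each subregion and on the average, up to 4 per difference, up to 4 per comparison of levels, and every March gene; others are named to complete a count. The members and lists were chosen with earlier results of these data known. Alternatives were a pseudocount of 0.5 or 5, a minimum of 50 or none, TMM, quantile normalization, edgeR 4.0.16, DESeq2 1.42.0, a term for the run, each run alone, leaving out each rat and no pairing. A term for the mitochondrial share was added after the data were seen. Differences of the age change were fitted only with a pseudocount of 5, quantile normalization, a run term, each run alone and no pairing. The tools edgeR and DESeq2 were used by subregion only. All 52 symbols were matched to a RefSeq gene (GRCr8) and 43 to upstream sequence. The tests were checked on simulated data.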

Additional observations from a re-analysis of the deposited data

Results flagged for a closer look

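Members are given here whose change with age differed between subregions in the test within rats. Trim44 differed by 0.62 on the log2 scale between the DG and CA1 and by 0.46 between the DG and CA3, with opposite directions in the DG and CA1. The DG and CA3 changes also differed for Trim8 (-0.26), Trim23 (0.27) and Trim27 (-0.22). All 5 differences had the same sign in each run of animal numbers, and none passed in the first run alone (limma adjusted p from 0.212 to 0.58). They were called on both runs together, which by itself favours an equal sign. These differences were not refitted without single rats or with the mitochondrial term.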

How the results depend on the processing

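No named change that passed reversed direction under any alternative run. Of 25 named changes without a call, all of March genes or of Trim23, Trim27 and Trim44, 10 took the other sign under at least 1 alternative, at sizes up to 0.13; examples are March6 in CA1, 0.07 with the mitochondrial term, and March10 in CA1, -0.13 in the first run. Counts of called members stayed within 1.5 times under other pseudocounts, filters, TMM, quantile normalization, edgeR, DESeq2, a term for the run and the second run alone. The first run alone gave 1 in CA1 (not among the 11 called over both runs), 3 in CA3, 0 in the DG, 9 on the average, and 0 for each difference with the DG (limma). An unadjusted p under 0.05 (limma) was found for 6 members for the DG against CA1 and for 9 against CA3. Of all genes, 12.0% and 10.9% had one. A term for the mitochondrial share, chosen after seeing the data, gave 1 in CA1 and 5 in CA3. Leaving out 1 rat gave 7 to 16 in CA1, 7 to 10 in CA3, 21 to 27 in the DG and 21 to 25 on the average; the CA1 count fell to 7 without young replicate 1. Without the replicate block, which pairs libraries by rat, 0 members differed between the DG and CA1 and 2 between the DG and CA3. For the DG and CA1, 6 members had an unadjusted p under 0.05 (limma), where 13.5% of all genes did. Leaving out the block changed no call between CA1 and CA3. On deposited values, 7 members in place of 5 were higher in CA3 than the DG. A single run holds fewer rats; otherwise the cause was not tested. In the second run alone 4 members differed between the DG and CA3, and Trim8 was the 1 shared with the full data. Other calls lost without 1 rat were Trim37 in the DG (young replicates 7, 8, 9, 11 or 12, middle-aged replicates 1 or 5), Trim39 in the DG (young replicates 3 or 6), Trim5 in the DG (young replicate 9), and on the average Trim11 (young replicates 2 or 5) and Trim45 (young replicates 2 or 6), with adjusted p up to 0.0664. Leaving out 1 rat also added calls that the full data did not give, for 6 members in CA1, 8 in CA3, 4 in the DG and 5 on the average, for example Trim67 in CA1 without young replicate 6 (adjusted p 0.00748). The share of all genes called is not given here for the fits without 1 rat or without the block. Nor is it given for CA3 with the mitochondrial term, for second-run differences or for levels on deposited values. These counts lack a background and are not results about the members as a set. Members under about 10 counts, such as Trim72, were too low to test.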

Other observations

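Trim17, a PRY-SPRY member known from neurons, was picked out after its values were seen. On the average over subregions it was higher at 12 months in the first run (0.29, limma adjusted p = 0.0331) and lower in the second (-0.30, limma adjusted p = 0.00728). Over both runs it gave 0.04 (limma adjusted p = 0.696). The same order of runs held for CA1 (0.49 and -0.18), CA3 (0.36 and -0.49) and the DG (0.02 and -0.22).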
